A study of Mus musculus with 8 samples.

Results

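Monocytes and macrophages are followed here through 10 genes that mark them, Csf1r, Adgre1, Cd68, Lyz2, Ctss, Fcgr1, Cd14, Mrc1, Apoe and C1qa, matched by symbol in GENCODE release M21 and found among 52636 genes of a count table. Immune cells were taken from spleen and lymph node at 35 to 55 days of age, before signs of disease. All groups shared a culture of 4 days with mouse IL23 and IL6 at 20 ng/ml each, human TGF-β at 4 ng/ml, mouse IL12 at 3 ng/ml and anti-CD3 at 1 μg/ml, labelled TH1/TH17. The groups were TCR1640 males, TCR1640 females, SJL/J males and SJL/J females, with 2 sequenced columns each, and the design asks how the sexes differ in each strain. TCR1640 is a strain made transgenic for a myelin-reactive T cell receptor, which falls ill without immunization, and SJL/J is its wild-type strain. The promoter of the transgene is not stated, and nothing in the labels says that the columns of a group came from separate mice.

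Monocytes leave the bone marrow, circulate, and settle in tissues as macrophages, which engulf particles, degrade them in lysosomes and present fragments to T cells. Their growth and survival depend on signals through the receptor encoded by Csf1r, and the transcription factor PU.1, encoded by Spi1, is required for the lineage. In spleen and lymph node they sit beside a large majority of lymphocytes, and a culture driven by anti-CD3 is made to expand T cells.

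Column totals ran from 3765291 to 5116467 counts. Leaving out Gm43333, columns of the same group differed little more than sampling would give (chi-square over degrees of freedom 1.05 to 1.08), while columns of different groups gave 3.12 to 17.1. Gm43333, left out after its values were seen, took a share of counts 2.98 to 3.97 times higher in the number-1 than in the number-2 column of every group, and with it the values within groups were 1.34 to 2.44. Each pair of columns was summed into 1 sample (n = 1 per group), and differences between 2 samples carry counting intervals and no p-value. Sex labels matched Eif2s3y, a Y-linked gene with 87 to 124 counts in male columns and 0 in female columns. Strain labels went against receptor use, which a receptor transgene is known to narrow: Traj43 took 2.91% and 5.04% of alpha joining segment counts in males and females labelled TCR1640, against 79.2% and 75.6% in those labelled SJL/J. Strain names below are therefore those of the labels alone. Strand is also in doubt, since the kit marks strand and the setting used for counting is not stated. Coding and noncoding features that overlapped on opposite strands were compared, with minimums of 200 counts and 100 overlapping bases. The noncoding feature held more counts in 700 of 902 pairs. Gm48719, with 361 exon bases, held 63498 counts over all columns, against 5400 for Cd3e on the opposite strand. Tsix likewise held more counts than Xist on the opposite strand, which had 3003. If counting took the strand opposite to the RNA, the counts of every gene, high or low, would not measure its transcripts, and this was not settled. Levels and changes below are those of counts under a gene's name, and may not be those of its transcripts. Csf1r was the member that overlapped another gene on the opposite strand.

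The members were unequal in level. Per length, in CPM (counts scaled to TMM-adjusted library size) per kb of exon sequence averaged over the 4 samples, Csf1r stood at 21.5 and Ctss at 18.8. Cd68 stood at 3.88, Apoe at 2.77 and Lyz2 at 2.46, and the other 5 members at 0.417 or less. On the same scale the 8 T cell markers ran from 11.6 for Cd5 to 84.1 for Cd3g, a chain of the T cell receptor complex. The samples of Csf1r and Ctss overlapped in level, and so did those of Cd68, Apoe and Lyz2. Defining genes of mature macrophages had counts at or near 0. Adgre1, which encodes the F4/80 antigen used to recognise mouse macrophages, had 1 count over all 8 columns. C1qa, a chain of the complement starter C1q, had 4 counts, its partner C1qc had 1, and C1qb had 0. A count of 0 in a summed sample allows a level of up to 0.302 to 0.387 CPM, for counting error only. With the strand in doubt, counts near 0 for Adgre1 and C1qa do not show that their transcripts were absent. Which cells gave the counts of the other members was not tested.

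**Figure D1:**
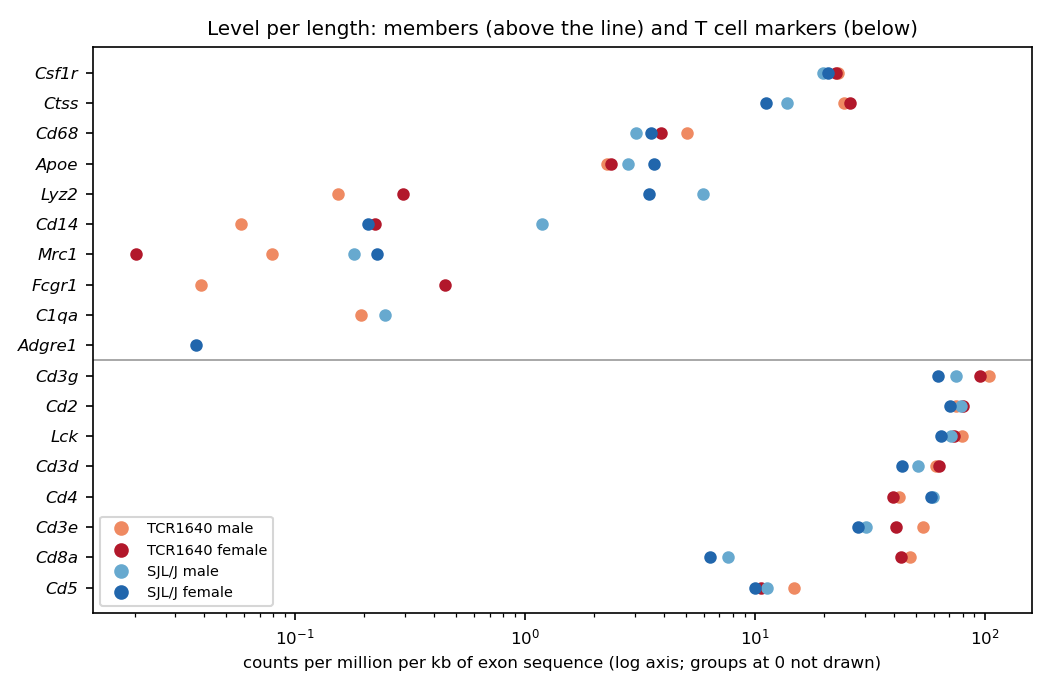
Level per length of the 10 members (above the line) and of 8 T cell markers (below it), in CPM per kb of exon sequence on a log axis. Each point is 1 summed sample, coloured by label, and samples at 0 counts are not drawn. Csf1r and Ctss are the highest members, and every sample of Adgre1, C1qa, Fcgr1, Mrc1 and Cd14 lies below every T cell marker.

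Between strain labels, Lyz2 was lower and Ctss higher in the libraries labelled TCR1640, and the other 3 members with enough counts for the test did not pass. Lyz2 encodes lysozyme M, an enzyme of macrophages and neutrophils that cuts bacterial walls. Ctss encodes cathepsin S, the lysosomal protease that trims the invariant chain of MHC class II in antigen-presenting cells. In bulk samples such as these, fewer cells of a type and less RNA per cell cannot be told apart.

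The upstream sequences of both genes are shown because they changed in opposite directions, with Cd68 and Mrc1 beside them. Windows run from base -250 to base -50 before the transcript start on GRCm38.p6, in RefSeq's promoter table, which matched 6 of the 10 members with 8 windows. They are chr10:117282322-117282522 on the minus strand for Lyz2, chr3:95526536-95526736 on the plus strand for Ctss, chr11:69666220-69666420 on the minus strand for Cd68 and chr2:14229164-14229364 on the plus strand for Mrc1. Capitals mark GAGGAA or its reverse complement TTCCTC, a core that PU.1 is known to bind.
Lyz2: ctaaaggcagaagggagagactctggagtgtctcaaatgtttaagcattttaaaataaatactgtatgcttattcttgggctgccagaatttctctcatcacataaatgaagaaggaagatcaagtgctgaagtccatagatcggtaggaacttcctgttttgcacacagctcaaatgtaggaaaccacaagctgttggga
Ctss: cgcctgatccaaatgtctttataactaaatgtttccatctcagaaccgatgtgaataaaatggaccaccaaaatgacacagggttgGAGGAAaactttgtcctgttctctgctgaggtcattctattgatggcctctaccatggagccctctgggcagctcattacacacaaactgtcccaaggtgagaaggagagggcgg
Cd68: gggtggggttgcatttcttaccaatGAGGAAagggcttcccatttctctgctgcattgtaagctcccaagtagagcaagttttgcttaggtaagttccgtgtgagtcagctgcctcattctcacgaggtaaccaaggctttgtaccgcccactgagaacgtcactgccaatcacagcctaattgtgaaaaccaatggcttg
Mrc1: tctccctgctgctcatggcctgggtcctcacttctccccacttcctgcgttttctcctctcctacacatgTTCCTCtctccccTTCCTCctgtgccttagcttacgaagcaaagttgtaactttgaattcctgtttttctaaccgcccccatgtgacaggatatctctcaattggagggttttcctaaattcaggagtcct
The core was in 6 of the 8 member windows, among them those of Ctss, Cd68 and Mrc1, and not in that of Lyz2. Several of the 8 windows belong to Apoe, some with the core and some without, so windows are not separate genes. No other form of the site was searched for, in Lyz2 or elsewhere. Of 32851 windows of the same length over all genes, 18.8% held it. A match here is a description of letters.

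Lyz2 (ENSMUSG00000069516, chromosome 10, 117277331 to 117282321, minus strand, GRCm38) had 1 and 1 counts in male columns labelled TCR1640, against 24 and 37 in those labelled SJL/J. It had 2 and 1 counts in female columns labelled TCR1640, against 13 and 25 in those labelled SJL/J. Every column labelled TCR1640 was below every column labelled SJL/J. The log2 ratio of summed counts was -5.27 in males (exact 95% counting interval -8.35 to -3.36), 38.6-fold lower. In females it was -3.56 (-5.90 to -1.90), 11.8-fold lower. Over both sexes, Lyz2 fell by 4.39 on the log2 scale (SE 0.53, adjusted p = 4.66e-15, edgeR quasi-likelihood test with Benjamini-Hochberg adjustment), lower in 2 of 2 sexes. Lyz2 passed the filter on low counts only through the libraries labelled SJL/J. Its near-identical neighbour Lyz1, with which reads may be split, had 0 counts in every column labelled TCR1640 and 2 to 6 in those labelled SJL/J, so the level of either is uncertain.

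Neutrophils also use Lyz2, and their markers moved with it. Of 10 tested neutrophil markers 8 fell and 1, Ly6g, rose, where 13.1% and 13.4% of all genes tested did. Their median log2 change was -5.55, or -5.23 with genes at 0 counts set at their bound. S100a8 and Elane were at 0 counts in the libraries labelled TCR1640 and passed the filter on low counts only through those labelled SJL/J. Genes high in 1 label only could pass that filter through it, so the number that fell and the median lean toward change. S100a9, the most abundant, fell by 6.67 and Mpo fell by 5.79. The 12 listed markers summed to 16.5 and 21.1 CPM in males and females labelled TCR1640, against 171 and 68.2 CPM in those labelled SJL/J. Their part in the Lyz2 result was not tested.

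Ctss (ENSMUSG00000038642, chromosome 3, 95526786 to 95556403, plus strand) had 152 and 177 counts in male columns labelled TCR1640, against 69 and 78 in those labelled SJL/J. It had 132 and 141 counts in female columns labelled TCR1640, against 66 and 60 in those labelled SJL/J. The labels did not overlap in either sex. The log2 ratio was 0.82 in males (0.54 to 1.11) and 1.22 in females (0.91 to 1.53), 1.77-fold and 2.33-fold higher. Over both sexes Ctss rose by 1.01 (SE 0.16, edgeR adjusted p = 1.11e-08), higher in 2 of 2 sexes. Ctss is also used by B cells and dendritic cells. Of 7 tested B cell markers 3 rose, Cd79b by 2.18, Pax5 by 0.95 and Cd79a by 0.73, and 2 fell, Ighm by 0.97 and Cd22 by 0.70. The 8 listed B cell markers summed to 125 and 132 CPM in males and females labelled TCR1640, against 204 and 179.5 CPM in those labelled SJL/J, most of it Ighm. Of 4 tested dendritic cell markers 2 rose, Batf3 by 0.56 and Ccr9 by 0.50. Among all genes tested 13.4% rose and 13.1% fell, and counts this small are not read as results about the B cell or dendritic cell list. Zbtb46 stood at 0.07 and Xcr1 at 0.03, and the 9 listed summed to 377 and 442 CPM in males and females labelled TCR1640, against 376 and 388 CPM in those labelled SJL/J, most of it Xcr1. Their part in the Ctss result was not tested.

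Csf1r (ENSMUSG00000024621, chromosome 18, 61100598 to 61132149, plus strand), the receptor for M-CSF and IL-34, was nearly level. It had 640 and 676 counts in male columns labelled TCR1640, against 436 and 458 in those labelled SJL/J. It had 523 and 485 counts in female columns labelled TCR1640, against 481 and 516 in those labelled SJL/J. Scaled to library size, the samples stood at 133 and 129.9 CPM in males and females labelled TCR1640, against 114 and 119.7 CPM in those labelled SJL/J. The 4 samples lay close together, with both labelled TCR1640 above both labelled SJL/J. The log2 change over both sexes was 0.17 (SE 0.13, edgeR adjusted p = 0.357). With the 8 columns taken as separate samples it passed, at 0.16 (edgeR adjusted p = 0.0287), or adjusted p = 0.0443 with the replicate number as a block. Columns of a group differed little more than sampling would give, so these p-values compare columns rather than mice. Csf1r overlaps Hmgxb3 on the opposite strand by 873 exon bases. Hmgxb3 held 505 counts over all columns, and without the strand setting reads of the 2 genes cannot be told apart, so the level of Csf1r is uncertain.

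Cd68, a lysosomal membrane glycoprotein, and Apoe, a carrier of cholesterol secreted by macrophages, did not pass. Cd68 had 25 and 38 counts in male columns labelled TCR1640, against 16 and 14 in those labelled SJL/J. It had 20 and 18 counts in female columns labelled TCR1640, against 20 and 17 in those labelled SJL/J. Male columns did not overlap between labels and female columns did. Its log2 change was 0.44 (SE 0.31, edgeR adjusted p = 0.310), and the male ratio of 0.73 had a counting interval of 0.08 to 1.41. Apoe had 21 and 27 counts in male columns labelled TCR1640, against 22 and 25 in those labelled SJL/J. It had 24 and 15 counts in female columns labelled TCR1640, against 34 and 31 in those labelled SJL/J. Female columns labelled TCR1640 were below those labelled SJL/J, while the male columns overlapped in counts and were lower under the label TCR1640 once scaled to column totals. Its log2 change was -0.47 (SE 0.28, edgeR adjusted p = 0.220), with a female ratio of -0.63 (-1.25 to -0.04).

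Mrc1, Cd14, Fcgr1, Adgre1 and C1qa had too few counts for the test. Mrc1 encodes the mannose receptor, which takes up glycoproteins. It had 1 and 4 counts in male columns labelled TCR1640, against 6 and 3 in those labelled SJL/J, a log2 ratio of -1.19 whose interval of -3.11 to 0.54 includes equality. It had 0 and 1 counts in female columns labelled TCR1640, against 6 and 6 in those labelled SJL/J, a ratio of -3.48 (-8.90 to -0.73). The labels overlapped in males and not in females. With a filter of 1 CPM in 2 samples Mrc1 was tested and passed, at -1.94 (edgeR adjusted p = 0.041). Without a filter it stood at -1.93 (adjusted p = 0.117), and without SJL/J male replicate 2 it passed at -2.22 (adjusted p = 0.0298).

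Cd14, the co-receptor for bacterial lipopolysaccharide, had most of its counts in males labelled SJL/J. It had 1 and 0 counts in male columns labelled TCR1640, against 8 and 8 in those labelled SJL/J, a log2 ratio of -4.34 (-9.73 to -1.65). It had 1 and 2 counts in female columns labelled TCR1640, against 1 and 2 in those labelled SJL/J, too few for a ratio. Fcgr1, the high-affinity receptor for IgG, had most of its counts in females labelled TCR1640. It had 5 and 4 counts in female columns labelled TCR1640, against 0 and 0 in those labelled SJL/J, at least 3.22-fold higher against a floor of 3 counts over the sample. It had 0 and 1 counts in male columns labelled TCR1640, against 0 and 0 in those labelled SJL/J. Without a filter neither Cd14 (-2.21, edgeR adjusted p = 0.14) nor Fcgr1 (adjusted p = 0.183) passed between labels. Adgre1 had its single count in a female column labelled SJL/J. C1qa had 1 count in each of the 4 male columns and 0 in each female column, too few for a ratio.

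**Figure D2:**
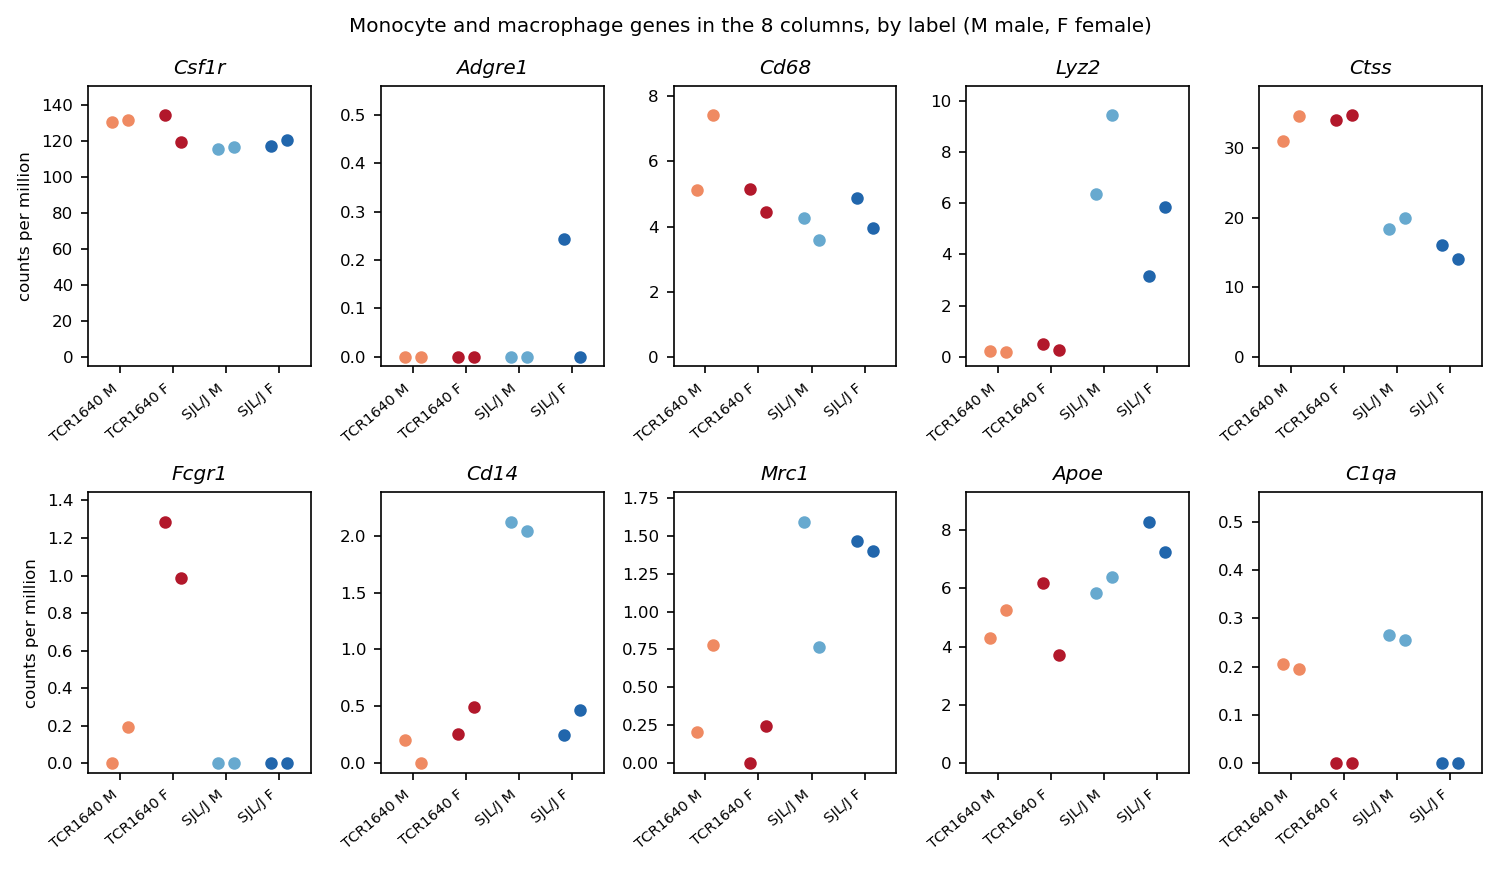
Level of each column in CPM of its own total for the 10 members, 1 panel a gene with its own axis. Each point is 1 column, and the 2 columns of a group count as 1 sample. All 4 columns labelled TCR1640 lie below those labelled SJL/J for Lyz2 and above them for Ctss, and Adgre1, Fcgr1, C1qa, Cd14 and Mrc1 rest on few counts.

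Counted together, 2 of the 5 members tested passed between strain labels over both sexes, 1 higher and 1 lower, where 26.5% of all 17261 genes tested passed, 13.4% higher and 13.1% lower. A count of this size among so few members is not read as a result about the set. A rule of size called a gene apart at 2-fold or more with a counting interval that excludes equality. In males Lyz2 was apart, as were 12.1% of genes tested (5.64% higher and 6.51% lower). In females Lyz2 and Ctss were apart, as were 9.90% of genes (4.40% higher and 5.50% lower).

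No member tested passed between the sexes. Over both labels 0 of 5 passed in edgeR, with adjusted p between 0.725 and 0.986 and 0 at an unadjusted p under 0.05, where 1.10% of all genes passed (0.139% higher and 0.962% lower in males). DESeq2 and limma-voom also passed 0. In males over females Csf1r had a log2 change of -0.02 (SE 0.13), Ctss 0.08 (SE 0.16), Cd68 0.11 (SE 0.31), Apoe -0.23 (SE 0.28) and Lyz2 0.60 (SE 0.43).

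Within a label, no member tested was apart between sexes. The share of all genes apart was 3.12% in the libraries labelled TCR1640 (1.07% higher and 2.05% lower in males) and 2.56% in those labelled SJL/J (1.01% higher and 1.55% lower). Lyz2 had 24 and 37 counts in the male columns labelled SJL/J and 13 and 25 in the female ones, a log2 ratio of 0.77 (0.16 to 1.39), with columns that overlapped in counts and not once scaled to column totals. In the libraries labelled TCR1640 it had 3 counts or fewer in each sample and gives no ratio. Outside the genes tested, Cd14 had 8 and 8 counts in males and 1 and 2 in females labelled SJL/J, a log2 ratio of 2.50 (0.70 to 4.92). Fcgr1 had 0 and 1 counts in males and 5 and 4 in females labelled TCR1640, a log2 ratio of -3.53 (-8.98 to -0.67). Neutrophil markers moved with Lyz2 and Cd14 in the libraries labelled SJL/J, as their summed levels above show. So did erythroid and platelet markers, which summed to 297 CPM in males and 173 CPM in females labelled SJL/J. Over both labels 4 of 10 tested neutrophil markers and 3 of 8 tested erythroid and platelet markers passed higher in males, where 0.139% of all genes did. The male excess lay under the label SJL/J, with 7 neutrophil and 3 erythroid and platelet markers apart and higher (median log2 ratios 1.43 and 0.83). Under the label TCR1640, 0 in either list were apart and higher, and 1 neutrophil marker was apart and lower. The medians there were -0.67 for neutrophil and -0.02 for erythroid and platelet markers. The part of these cells was not tested.

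The sex difference was also compared between labels, as the log2 ratio of males over females in the libraries labelled TCR1640 minus that in those labelled SJL/J. It was -0.40 (-0.81 to 0.02) for Ctss, 0.10 (-0.08 to 0.28) for Csf1r, 0.59 (-0.32 to 1.5) for Cd68 and 0.33 (-0.49 to 1.14) for Apoe, each with a counting interval that included 0. Csf1r, Cd68, Lyz2, Ctss and Apoe did not pass an edgeR interaction test on the 8 columns (adjusted p between 0.283 and 0.716). That test passed 10.2% of genes and compares columns rather than mice. The other members, Cd14 and Fcgr1 among them, were not in it, so whether their sex difference differed between labels was not tested.

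**Figure D3:**
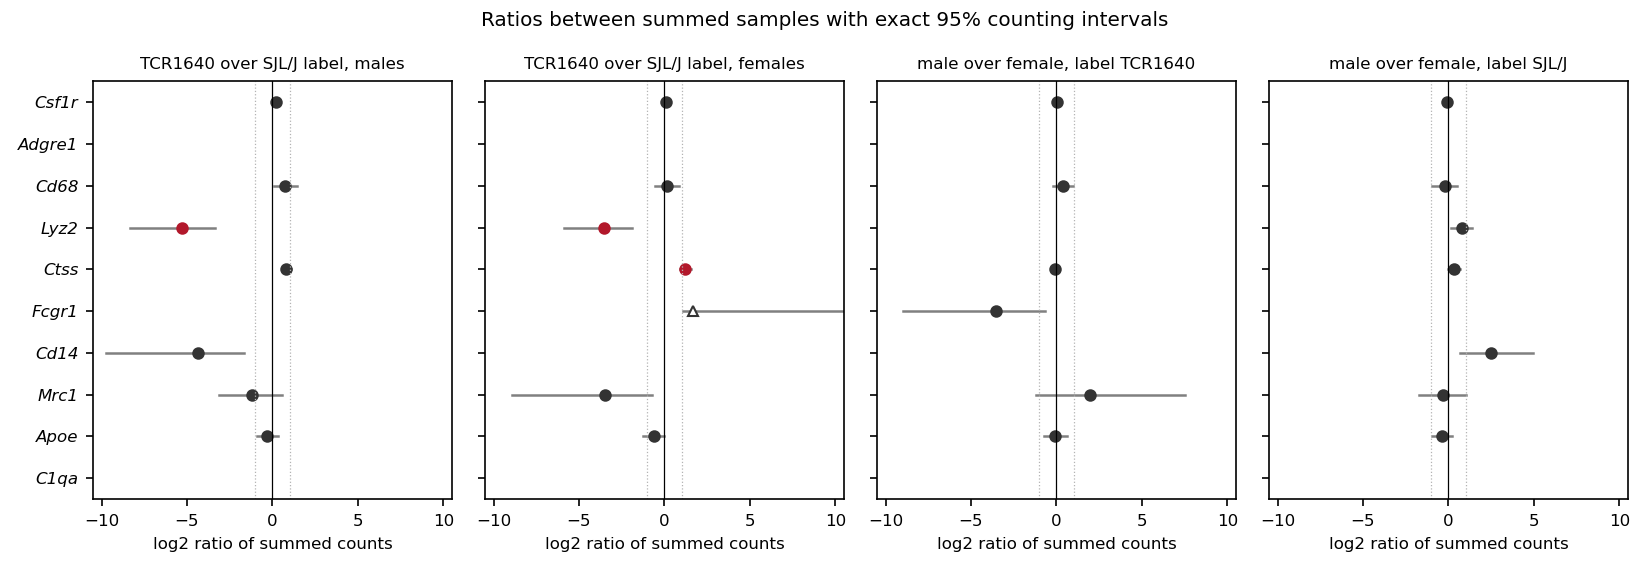
Log2 ratios of summed counts for the members in 4 comparisons, with exact 95% counting intervals as bars. Red points differ by at least 2-fold (dotted lines) with an interval that excludes equality among genes tested, and the open triangle is a ratio against 0 counts set at the floor of 3. Lyz2 lies at -5.27 in males and -3.56 in females between strain labels, and no red point appears between sexes.

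Other genes of the lineage were read from lists, each with its number passed between strain labels in edgeR. Genes high in 1 label only could pass the filter through it, so their counts lean toward change. Each count is to be read against the 13.4% of all genes tested that passed higher and the 13.1% that passed lower, and with so few genes a list near these shares is not a result about the list. Of the growth factor and receptor genes, 3 of 7 had enough counts, and all 3 fell (median -1.74, against 0.01 over all genes tested). Csf2rb, the shared receptor chain for GM-CSF and IL-3, had 66 and 38 counts in males and females labelled TCR1640, against 725 and 581 in those labelled SJL/J. It fell by 3.81 (SE 0.18, adjusted p = 5.55e-99). Csf1, which encodes M-CSF, a ligand of the Csf1r receptor, had 152 and 129 counts in males and females labelled TCR1640, against 495 and 369 in those labelled SJL/J. It fell by 1.74 (SE 0.16), and Csf2ra fell by 0.88. Both samples labelled TCR1640 were below both labelled SJL/J for Csf2rb and Csf1. Il34, the other ligand, had too few counts to test.

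Of 10 tested myeloid transcription factors 5 fell and 1 rose (median -0.65), where 13.1% and 13.4% of all genes did. Spi1 had 3 and 1 counts in males and females labelled TCR1640, against 40 and 29 in those labelled SJL/J. It fell by 4.20 (SE 0.61, edgeR adjusted p = 1.40e-10). Cebpa, a factor of early myeloid cells, fell by 4.14 and overlaps Gm45091 on the other strand. Zeb2 fell by 1.33, and Maf, the most abundant of the list, fell by 0.42, and both overlap a feature on the opposite strand and are uncertain. Irf8, needed for monocytes and dendritic cells, and used by B cells too, rose by 0.41. Mitf stood at -1.20 and did not pass.

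The receptor lists were thin. Of 12 scavenger and lectin receptors 3 were at 0 in every column, 3 had enough counts, and those 3 fell (median -1.48). Cd163, the haemoglobin scavenger receptor of macrophages, had 6 and 4 counts in males and females labelled TCR1640, against 63 and 78 in those labelled SJL/J. It fell by 3.90 (SE 0.42, edgeR adjusted p = 6.52e-19). Stab1, which overlaps Nt5dc2, fell by 1.48 and Axl by 0.84. Of 7 tested Fc receptors and partners 3 fell and 1 rose (median -0.93). Fcer1g, the signalling chain that Fcgr1 needs and that mast cells and basophils also use, had 1 and 1 counts in males and females labelled TCR1640, against 42 and 22 in those labelled SJL/J. It fell by 5.01. Syk fell by 1.10, Fcgrt, the neonatal Fc receptor, rose by 2.95, and Fcgr2b stood at -1.07 and did not pass. Of 4 tested Toll-like receptors and partners 0 passed in edgeR, with Ly96, the partner of Tlr4, at -0.60, Irak3 at -0.39, Ticam1 at 0.19 and Myd88 at -0.10. Fcgr2b, Irak3 and Myd88 overlap features on the opposite strand and are uncertain.

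Among 6 tested complement genes 2 fell and 0 rose (median 0.36), where 26.5% of all genes passed. These were C3, the central complement protein, which fell by 1.95, and Cfp, which fell by 2.08. Itgam, the alpha chain of complement receptor 3 known as CD11b, stood at 1.10, Itgb2 at 0.27 and C3ar1 at 0.48, and these 3 did not pass. The monocyte list split: of 16 tested genes 7 fell and 4 rose (median -0.34). Pirb fell by 2.19, Cybb, the catalytic subunit of the phagocyte oxidase, by 2.08, and Fn1, which overlaps Apol7d, by 1.92. Lst1 had 535 and 404 counts in males and females labelled TCR1640, against 97 and 126 in those labelled SJL/J. It rose by 1.95 (SE 0.16, edgeR adjusted p = 1.78e-31). Ms4a6c rose by 0.46 and overlaps BE692007.

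Of 14 tested lysosomal genes, which most cells use, 3 rose and 2 fell (median 0.05), where 26.5% of all genes passed. Ctsa rose by 0.36, Ctsd by 0.37 and Psap by 0.36, while Grn fell by 0.78 and Ctsz by 0.39. Ctsa, Grn and Ctsz overlap genes on the opposite strand. In lipid transport 2 of 7 tested genes rose and 1 fell (median -0.20), where 26.5% of all genes passed. The cholesterol exporters Abca1 and Abcg1 rose by 1.58 and 1.18 and Fabp5 fell by 0.78, while Lrp1 stood at -0.40 and Plin2 at -0.33 and neither passed.

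Of 8 tested macrophage activation genes 2 fell and 0 rose (median -0.17), where 26.5% of all genes passed. Chil3, a chitinase-like protein of alternatively activated macrophages and of neutrophils, had 0 and 0 counts in males and females labelled TCR1640, against 88 and 33 in those labelled SJL/J. It was at least 37.1-fold lower in males and at least 10.3-fold lower in females at a floor of 3 counts a sample. Of the genes in the 10 lineage lists Chil3 alone passed between sexes, with an edgeR adjusted p = 0.0488, a result set by the libraries labelled SJL/J. Among all genes tested 1.10% passed between sexes, and 1 gene is not read as a result about the lists. Il1b, which overlaps Il1bos, had 6 and 5 counts in males and females labelled TCR1640, against 74 and 56 in those labelled SJL/J. It fell by 3.68. Arg1 stood at -0.11, Nos2 at -0.46 and Il1a at -0.24, and these 3 did not pass.

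Markers of some other cells were lower together with the lower myeloid genes. All 7 tested mast cell and basophil markers fell (median -3.10), where 13.1% of all genes tested did. The log2 change was -6.05 for Mcpt8, -5.28 for Prss34, -4.39 for Fcer1a, -3.10 for Gata2 and -0.54 for Hdc, the most abundant. The 8 listed summed to 19.8 and 17.5 CPM in males and females labelled TCR1640, against 106 and 90.8 CPM in those labelled SJL/J. Of 8 tested erythroid and platelet markers 5 fell (median -1.94), against the same 13.1%, with Ppbp at 0 under the label TCR1640. Ppbp, and Fcer1a with 1 count in each sample labelled TCR1640, passed the filter only through the libraries labelled SJL/J. The numbers that fell in both lists therefore lean toward change. The log2 change was -6.81 for Pf4, -3.30 for Itga2b, the most abundant, and -2.86 for Gp9, and the 9 listed summed to 41.3 and 43.6 CPM in males and females labelled TCR1640, against 297 and 173 CPM in those labelled SJL/J. Of the stromal and endothelial markers 2 were tested and 0 passed, Pecam1 at -0.04 and Col1a1 at 0.02. Of 8 T cell markers 4 rose and 1 fell (median 0.32), where 13.4% and 13.1% of all genes tested did, too few markers for a result about the list. Cd8a rose by 2.69, Cd3e, which overlaps Gm48719, by 0.69 and Cd3g, the most abundant, by 0.54, while Cd4 fell by 0.52, and the 8 summed to 1449 and 1314 CPM in males and females labelled TCR1640, against 1128 and 1017 CPM in those labelled SJL/J. The part of these cells in the changes of Csf2rb, Fcer1g, Spi1 and Lyz2 was not tested.

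**Figure D4:**
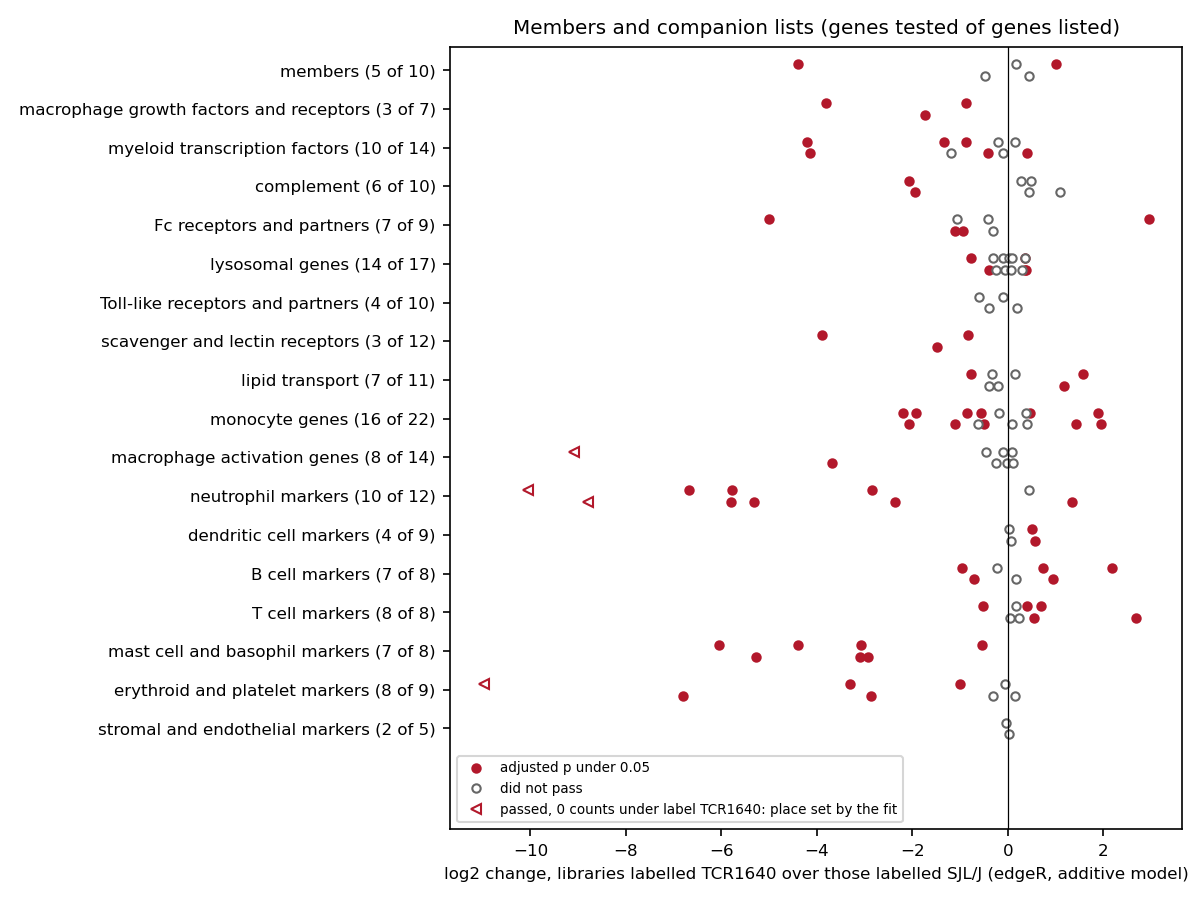
Log2 change of libraries labelled TCR1640 over those labelled SJL/J (edgeR, additive model) for every tested gene of the members, the 10 lineage lists and the 7 lists of other cells. Filled points passed at an adjusted p under 0.05, open circles did not, and open triangles are genes with 0 counts under the label TCR1640 whose place is set by the fit. The 5 tested members run from -4.39 for Lyz2 to 1.01 for Ctss, and the tested mast cell and basophil markers all lie left of 0.

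The genes with the profile nearest to the members were nearly flat. The median centred log2 profile of the 5 members with at least 100 counts spanned 0.24 over the 8 columns. Among 11614 other genes the nearest were Usp24, Khdrbs1, Prrc2c, Srrm2 and Ccdc167, at root mean square distances of 0.0272 to 0.0488 log2 units over 8 columns. The median hides Lyz2 and Ctss, which changed in opposite directions.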

How the data were processed

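The values are raw gene counts as deposited, for 8 columns. Per the labels' protocols, 500 ng of RNA went into a stranded KAPA mRNA kit. Per the submitters' processing notes, bcl2fastq 2.17, Bowtie2, HTSeq and mm10 were used. Neither the strand setting nor the annotation used for counting is stated. Symbols came from GENCODE M21 (GRCm38, the assembly mm10 names), which lacked 147 identifiers.

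Groups and replicate numbers came from the titles, and columns were summed within groups after the chi-square check. An additive edgeR 4.0.16 model of strain label and sex (R 4.3.3, TMM, filterByExpr, quasi-likelihood F test, two-sided, Benjamini-Hochberg over 17261 genes, threshold 0.05) was fitted to the 4 sums. It leaves 1 residual degree of freedom and shares spread across genes (common coefficient of variation 9.78%), so SE and p do not measure spread between mice. Ratios of 2 sums use TMM-scaled totals and exact 95% conditional intervals, which cover counting error only, since reads carry no molecular identifiers. DESeq2 1.42.0 and limma-voom (limma 3.58.1) were alternatives.

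On simulated counts for the strain label comparison (17140 genes), the fit called 83% of 100 genes changed by 1 log2 unit and 99% of 100 changed by 2. Among unchanged genes it called 7. The changed genes were drawn from those with at least 100 counts in all, with spread set at the common value of the fit. These rates therefore do not cover members with fewer counts or spread between mice. Members, lists and tests were chosen with earlier results of these data known. Named are all members and, per list, up to 4 tested genes with the largest absolute strain label change and the most abundant one. Genes named beyond this rule, to complete a small count or because they share a locus or complex with a member, were chosen after their values were seen.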

Additional observations from a re-analysis of the deposited data

How the results depend on the processing

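Lyz2 (log2 change -4.97 to -3.68) and Ctss (0.94 to 1.06) kept their direction and passed in all 19 alternatives between strain labels, with adjusted p up to 4.39e-04 and 0.0069. Cd68 and Apoe passed in 0 of the 19, Csf1r in 2, and no member passed between sexes in any of them. Causes of the changes in counts below were not tested unless named. Between strain labels 4572 genes passed, and 1410 in DESeq2; leaving out columns gave 2981 to 4330, the lowest without both number-2 columns. Between sexes 190 passed, with 108 under upper-quartile factors, 118 with no filter, 7 in DESeq2 and 1169 with the 8 columns as samples. Leaving out columns gave 8 to 143 between sexes, and each single column except SJL/J female replicate 1 moved that count by over 1.5 times, with 8 without TCR1640 male replicate 2. The number of members passing was 2 to 3 between labels and 0 between sexes. The fits of the number-1 or number-2 columns alone were added after seeing the data.

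A minimum mean log2 CPM of 3 left fewer genes to test, with 691 of 2097 apart in males and 504 of 1708 in females between labels. Between sexes it left 57 of 539 (label TCR1640) and 35 of 442 (label SJL/J). Leaving out columns gave 2029 to 2063 and 1608 to 1667 between labels, and 502 to 529 and 446 to 498 between sexes. The interaction called 1612 genes, 610 in DESeq2, and 1262 to 1382 with columns left out.

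Same-numbered columns did not deviate together (correlations -0.0186 to 0.0175 over 6 pairs of groups) over 17261 genes. Gm43333 was an exception, higher in the number-1 column of all 4 groups, so the numbers are not shown to pair the samples beyond that gene. With the replicate block on the 8 columns, 876 genes passed between sexes. Depth limits Mrc1, Cd14, Fcgr1, Adgre1 and C1qa, each with 27 counts or fewer in all.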
